A study of Mus musculus with 6 samples.

Results

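Ribosome biogenesis is the making of ribosomal subunits in the nucleolus, and the 51 genes described here encode proteins of that pathway and of RNA polymerase I (Pol I). The genes were chosen from a fixed list of symbols by a match to the single gene symbol that the array's annotation gives each probe set. The list was chosen with earlier results of these data known, so it is not independent of them. Of the 51 listed genes, 48 were measured, among 20239 genes with a symbol in all. Noc2l, Ddx18 and Npm3 are not analysed here.

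Expression was measured on 6 one-colour arrays of total RNA from isolated mouse pericytes of the C57BL/6 background, the mural cells that surround capillaries. There were 3 arrays of control cells (C1 to C3) and 3 arrays (P1 to P3) of cells kept with 100 ng/ml PDGF-BB, the B-chain dimer of platelet-derived growth factor, all after 5 days. PDGF-BB is a ligand of the receptor tyrosine kinase PDGFR-β, and the comparison asks how the transcriptome under lasting PDGF-BB differs from that without it. The labels do not say what the control cells received, from which tissue the cells came, or whether a group's arrays are separate cultures. The spread behind each p-value is therefore that of these 6 arrays alone, which may be technical. Values are the authors' log2 expression values, and each log2 change is the PDGF-BB mean less the control mean, with its 95% interval from the fit.

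As background, Pol I copies the ribosomal DNA into 1 long precursor RNA. Small nucleolar ribonucleoproteins (snoRNPs) then modify it: box C/D particles methylate the ribose and box H/ACA particles convert uridine to pseudouridine. The small-subunit processome folds and cuts the part that becomes 18S rRNA, and a separate set of factors assembles the large subunit around 28S, 5.8S and 5S rRNA. The pathway is a classic target of growth factor signalling and of the transcription factor Myc, and it takes a large share of the energy of a growing cell.

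Ribosome biogenesis genes rose with PDGF-BB as a broad group. Of the 48 measured genes, 32 were higher at an adjusted p under 0.05 (limma, Benjamini-Hochberg over all 20239 genes) and 0 were lower, with 0 lower also at an unadjusted p under 0.05. Of all genes tested, 21.5% were called, 10.1% as higher and 11.4% as lower. The members are well expressed, with 47 of 48 at or above the median mean signal of all genes, and of the genes at or above that median 17.4% were called higher. The median log2 change of the 48 was 0.48, against -0.02 over all genes. The changes were modest in size. Those called ran from 1.22-fold to 2.19-fold, and 12 of the 32 reached 1.5-fold. Of all 20239 genes, 1662 were called and reached 1.5-fold in either direction. In 38 of the 48 genes all 3 PDGF-BB arrays lay above all 3 control arrays, as they did in 16.9% of all genes, and in 0 they lay below all controls, against 20.6%. Leaving out 1 array, 32 members were higher without C1 (10% of all genes were then called higher), 26 without C2 (7.59%), 24 without C3 (7.11%), 24 without P1 (7.07%), 23 without P2 (7.02%) and 27 without P3 (7.4%). With the arrays' number as a replicate block it was 35, against 10.9% of all genes. None of these fits called a member lower.

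**Figure D1:**
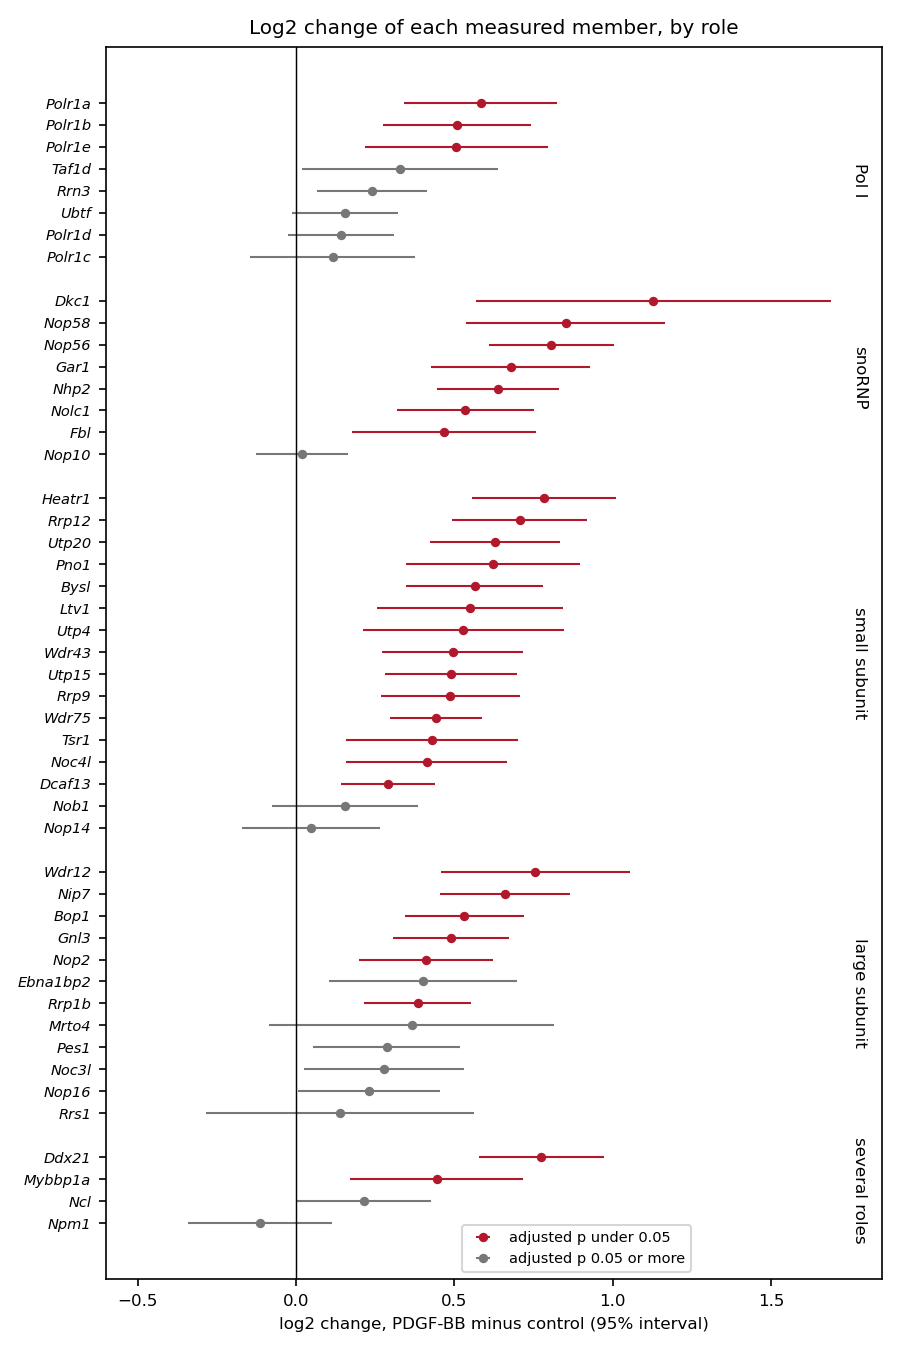
Log2 change of each of the 48 measured genes, PDGF-BB minus control, with the 95% interval of the moderated fit, grouped by role. Red points passed the test and grey points did not; all but Npm1 lie to the right of 0, and Dkc1 lies farthest at 1.13.

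The share that rose differed in count from role to role. It was 7 of 8 snoRNP genes, 14 of 16 genes of the small-subunit processome and the pre-40S particle, 6 of 12 large-subunit assembly genes and 3 of 8 Pol I transcription genes. Of 4 nucleolar proteins with several roles, 2 rose. The median log2 change was 0.66 for snoRNP genes, 0.49 for small-subunit genes, 0.39 for large-subunit genes, 0.33 for the proteins with several roles and 0.28 for Pol I genes. These differences between roles were not tested.

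The arrays of a group were not all alike. C1 was the highest of the 3 control arrays in 37 of the 48 genes, and C3 the lowest in 29. The median difference of the 48 genes was 0.33 log2 units from C1 to P1, 0.56 from C2 to P2 and 0.50 from C3 to P3. A list of 10 proliferation markers, of which 8 were measured, moved with these genes: all 8 rose, with a median log2 change of 1.29, and the mean log2 value of the 8 was 10.60, 10.24 and 9.57 on C1, C2 and C3 and 11.39, 11.49 and 11.47 on P1, P2 and P3. C1 was the highest control array in 8 of the 8. The part of proliferation in the rise of ribosome biogenesis genes was not tested. RMA brings the probe signals of the arrays to a common distribution, and the arrays' medians lay between 8.43 and 8.46, so these values do not measure the total RNA of a cell. In a culture measured in bulk a larger share of growing cells and more mRNA per cell cannot be told apart.

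**Figure D2:**
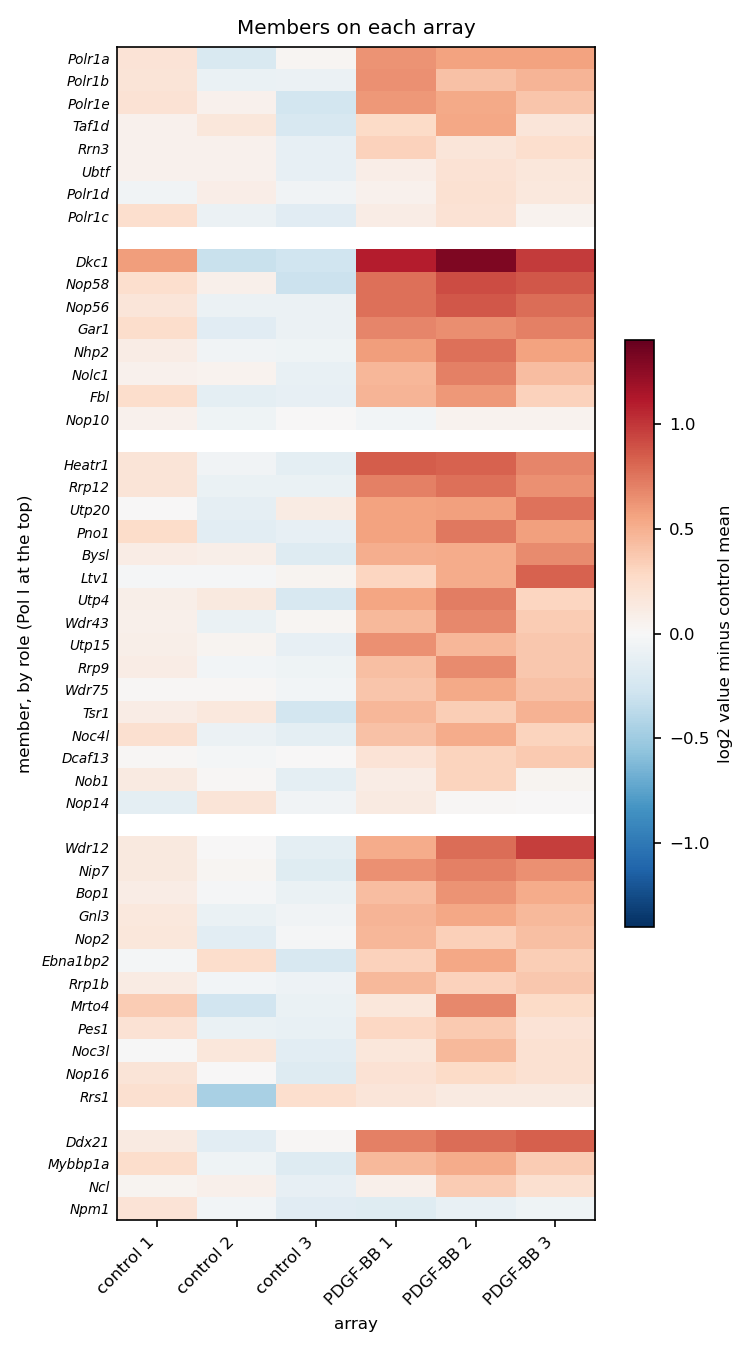
Log2 value of each gene on each of the 6 arrays minus its mean over the 3 control arrays, with genes in rows by role and arrays in columns. The 3 PDGF-BB columns are red (higher) for most genes, and in 37 of the 48 rows the first control column is the highest of the controls.

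The snoRNP genes held the largest change of the 48. Dkc1 (Entrez gene 245474), the pseudouridine synthase of box H/ACA particles and a part of telomerase, measured 9.90, 9.01 and 9.04 on C1, C2 and C3 and 10.41, 10.62 and 10.30 on P1, P2 and P3. The groups did not overlap, but C1 stood well above the other two controls. Dkc1 rose 2.19-fold (log2 change 1.13, SE 0.24, adjusted p = 0.016, limma). Its change was 1.42 without C1, and its adjusted p was 0.051 to 0.053 without C2, C3, P1 or P2.

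Dkc1 works in a core of 4 proteins with Nhp2, Gar1 and Nop10. Gar1 measured 9.84, 9.44 and 9.51 in control and 10.27, 10.25 and 10.30 with PDGF-BB, and rose (log2 change 0.68, adjusted p = 0.0056). Nhp2, which binds the RNA of the particle, measured 9.33, 9.17 and 9.17 in control and 9.81, 9.99 and 9.78 with PDGF-BB, and rose 1.56-fold (adjusted p = 0.0029). All PDGF-BB arrays of both lay above all control arrays. Nop10 (Entrez gene 66181), the small protein that holds Nhp2 against Dkc1, measured 11.18, 11.06 and 11.13 in control and 11.08, 11.18 and 11.18 with PDGF-BB, and its groups overlapped. Its log2 change was 0.02 with an interval of -0.12 to 0.17 (adjusted p = 0.87, limma), which lies below the intervals of Dkc1 (0.57 to 1.69), Gar1 (0.43 to 0.93) and Nhp2 (0.45 to 0.83). Gar1 and Nhp2 are given in full because they share that core, a choice made after their values were seen.

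The 3 core proteins of box C/D particles all rose. Nop58, one of the paralogous scaffolds of the particle, measured 9.87, 9.71 and 9.34 in control and 10.42, 10.55 and 10.51 with PDGF-BB (1.80-fold, adjusted p = 0.0054). Nop56 (Entrez gene 67134), the other scaffold, measured 11.68, 11.44 and 11.43 in control and 12.29, 12.39 and 12.30 with PDGF-BB. It rose 1.75-fold and had the smallest p of the 48 (log2 change 0.81, SE 0.08, adjusted p = 0.0017, limma). Fbl, fibrillarin, the methyltransferase of the particle, had a log2 change of 0.47 (adjusted p = 0.035), and its adjusted p was 0.099 to 0.11 without C2, C3, P1 or P2. Nolc1, a chaperone that accompanies snoRNPs between Cajal bodies and nucleolus, had a log2 change of 0.53 (adjusted p = 0.0075).

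**Figure D3:**
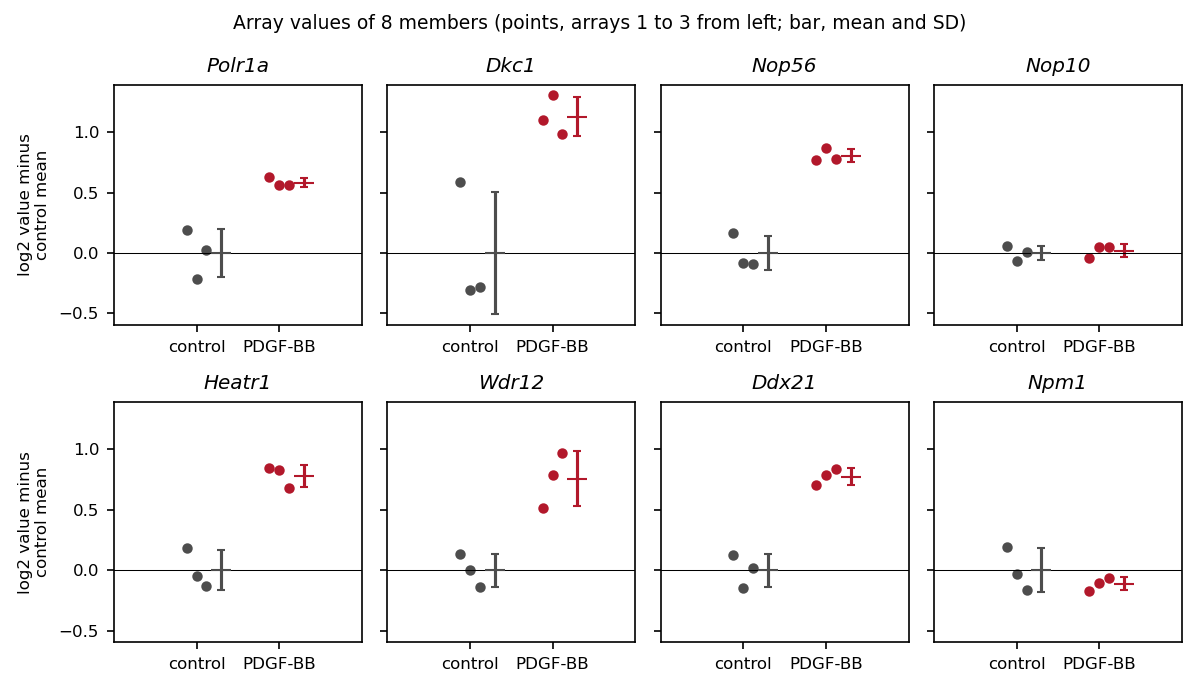
Log2 value minus the control mean on each of the 6 arrays for 8 genes, with points for arrays 1 to 3 of each group from left to right and a bar for the mean and SD of the 3. Control and PDGF-BB points are apart for Polr1a, Dkc1, Nop56, Heatr1, Wdr12 and Ddx21 and overlap for Nop10 and Npm1; C1 of Dkc1 stands above the other controls.

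The small-subunit group holds 5 subunits of UtpA, the subcomplex that binds the 5′ end of the precursor first, a grouping chosen after the values were seen. All 5 rose: Heatr1, Utp4, Utp15, Wdr43 and Wdr75, with log2 changes between 0.44 and 0.78. Nol11, a further UtpA subunit from the list of other pathway genes, had a log2 change of 0.20 and did not pass (adjusted p = 0.067). Heatr1 (Entrez gene 217995), a large scaffold of UtpA that is also needed for Pol I transcription, measured 9.81, 9.58 and 9.49 in control and 10.47, 10.45 and 10.30 with PDGF-BB, with no overlap. It rose 1.72-fold (log2 change 0.78, SE 0.10, adjusted p = 0.0026, limma). Utp4 had an adjusted p of 0.032, and of 0.050 to 0.096 without C1, C3, P1 or P2.

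Rrp12, which helps pre-40S particles leave the nucleus, measured 8.88, 8.60 and 8.61 in control and 9.40, 9.47 and 9.33 with PDGF-BB (1.63-fold, adjusted p = 0.0029). Utp20, a scaffold protein of the processome, measured 9.93, 9.81 and 10.05 in control and 10.49, 10.50 and 10.69 with PDGF-BB (1.55-fold, adjusted p = 0.0036). Both were separate between the groups. Rrp9, a protein of the U3 snoRNP, and Dcaf13 (Sof1 in yeast) had log2 changes of 0.49 and 0.29.

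Later factors of the 40S particle rose as well. Of the 6 pre-40S factors Rrp12, Bysl, Ltv1, Tsr1, Pno1 and Nob1, 5 rose. Pno1, which binds near the 3′ end of 18S rRNA, had a log2 change of 0.62 (adjusted p = 0.010), whereas Nob1, its partner and the nuclease that makes that end, lay 0.15 log2 units above control (interval -0.08 to 0.39, adjusted p = 0.34). Of the partners Noc4l and Nop14, Noc4l had a log2 change of 0.41 (adjusted p = 0.035). Nop14 measured 9.53, 9.85 and 9.61 in control and 9.79, 9.68 and 9.66 with PDGF-BB, and its groups overlapped (log2 change 0.05, interval -0.17 to 0.27, adjusted p = 0.79, limma). With 1 array left out, 9 to 12 of the 16 small-subunit genes rose, the 9 without P2. Of the 6 pre-40S factors 3 to 4 then rose, so the count of 5 held in none of these fits. The call of Ltv1 was lost without C1, C2, C3 or P2, and that of Tsr1 without P1, P2 or P3. The call of Dcaf13 was lost without C2, C3, P2 or P3, and that of Noc4l without any array but C1 (adjusted p = 0.050 to 0.11 in these fits, limma).

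Of the 12 large-subunit assembly genes 6 were called higher, but all 12 had a change above 0, as did 8914 of all 20239 genes. At an unadjusted p under 0.05 (limma) there were 10 of the 12, against 6614 of all 20239 genes in either direction. PeBoW is the complex of Pes1, Bop1 and Wdr12 that is needed to process the precursor of 28S rRNA. Wdr12 (Entrez gene 57750) measured 8.53, 8.39 and 8.25 in control and 8.90, 9.17 and 9.36 with PDGF-BB, with no overlap, and rose 1.69-fold (log2 change 0.76, SE 0.13, adjusted p = 0.0069, limma). Bop1 measured 10.60, 10.48 and 10.40 in control and 10.93, 11.13 and 11.02 with PDGF-BB (1.44-fold, adjusted p = 0.0047). Pes1 lay 0.29 log2 units above control (interval 0.06 to 0.52) and did not pass (adjusted p = 0.084), but passed without C1 (0.016).

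Nip7, a factor of early large-subunit particles, measured 8.84, 8.73 and 8.53 in control and 9.34, 9.40 and 9.33 with PDGF-BB (1.58-fold, adjusted p = 0.0031). Gnl3, the GTPase nucleostemin, Nop2, a methyltransferase of 28S rRNA, and Rrp1b were the others that rose, with log2 changes of 0.49, 0.41 and 0.38. The Nop2 call was lost without C3, P1 or P3 (adjusted p = 0.056 to 0.066). Rrs1, which brings the 5S particle to the large subunit, measured 9.15, 8.47 and 9.16 in control and 9.10, 9.05 and 9.05 with PDGF-BB. C2 stood below the other five arrays, and the groups overlapped (log2 change 0.14, interval -0.29 to 0.56, adjusted p = 0.68, limma). Ebna1bp2, Mrto4, Noc3l and Nop16 did not pass either, with log2 changes of 0.40, 0.37, 0.28 and 0.23. Mrto4 lay at 5.69 and 6.05 in the groups, below the background level of 7.66 taken from markers of absent cell types. With the replicate block Ebna1bp2 (adjusted p = 0.016) and Noc3l (0.038) passed, as did Nop16 without C1 (0.035). Ebna1bp2 also passed with quantile normalization repeated (0.044), with the arrays centred on their medians (under 0.05), without dim genes (0.044) and without C2 (0.023).

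Of the 8 Pol I genes, the subunit genes Polr1a, Polr1b and Polr1e rose and 5 genes did not pass the test. Polr1a (Entrez gene 20019), the largest subunit, measured 10.29, 9.89 and 10.13 in control and 10.73, 10.66 and 10.66 with PDGF-BB, and rose (log2 change 0.58, SE 0.10, adjusted p = 0.0082, limma). Polr1b, which forms the active site with it, measured 10.69, 10.42 and 10.43 in control and 11.16, 10.92 and 10.99 with PDGF-BB (1.42-fold, adjusted p = 0.012). Polr1e, a subunit of the Pol I-specific heterodimer, measured 8.72, 8.58 and 8.27 in control and 9.12, 9.06 and 8.91 with PDGF-BB (1.42-fold, adjusted p = 0.027). In each of the 3 the groups were apart. The Polr1e call was lost without C2 (adjusted p = 0.061), P1 (0.091) or P2 (0.078).

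Polr1c and Polr1d form an assembly platform that Pol I shares with Pol III. Polr1c measured 11.37, 11.06 and 10.97 in control and 11.24, 11.34 and 11.18 with PDGF-BB, and its groups overlapped (log2 change 0.12, interval -0.14 to 0.38, adjusted p = 0.55, limma). Polr1d lay 0.14 log2 units above control (interval -0.03 to 0.31, adjusted p = 0.23). Of the factors that bring Pol I to the promoter, Rrn3, which is regulated by growth factor kinases in its protein, lay 0.24 log2 units above control (interval 0.07 to 0.41, adjusted p = 0.060), and passed with the arrays centred on their medians (0.042) and without dim genes (0.048). Ubtf, the HMG-box protein that coats active ribosomal DNA, lay 0.15 log2 units above control (interval -0.01 to 0.32, adjusted p = 0.19). Taf1d, a subunit of the promoter factor SL1, had a log2 change of 0.33 (adjusted p = 0.13), and passed with the replicate block (0.022).

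Of the 4 proteins with several roles, 2 were called higher and 2 were not called. Ddx21 (Entrez gene 56200), an RNA helicase that binds both ribosomal DNA and snoRNAs, measured 10.83, 10.55 and 10.72 in control and 11.40, 11.49 and 11.54 with PDGF-BB. It rose 1.71-fold (log2 change 0.78, SE 0.08, adjusted p = 0.0018, limma). Mybbp1a, a nucleolar Myb-binding protein, measured 11.40, 11.08 and 10.96 in control and 11.60, 11.67 and 11.50 with PDGF-BB (1.36-fold, adjusted p = 0.035). Neither overlapped between groups. Mybbp1a had an adjusted p of 0.064 to 0.11 when C2, C3, P1, P2 or P3 was left out, so that 1 rather than 2 of these genes then rose.

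Ncl, nucleolin, and Npm1, nucleophosmin, are abundant nucleolar phosphoproteins. Ncl lay 0.21 log2 units above control (interval from just under 0 to 0.43, adjusted p = 0.15). Npm1 (Entrez gene 18148) measured 12.48, 12.25 and 12.12 in control and 12.12, 12.18 and 12.22 with PDGF-BB. It was the only 1 of the 48 with a change below 0, and its groups overlapped (log2 change -0.11, interval -0.34 to 0.11, adjusted p = 0.50, limma).

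The pathway's other genes were taken from lists written from textbook knowledge, and 124 of 130 were measured. Of these 49 rose and 4 fell, with a median log2 change of 0.23. Over all 20239 genes tested, 10.1% were called higher and 11.4% lower, and 6614 had an unadjusted p under 0.05 in either direction. Further small-subunit factors rose in 20 of 44 cases and fell in 0 (33 had an unadjusted p under 0.05 in either direction), led by Nol10 and Utp18, processome proteins (1.93-fold and 1.89-fold), and Mphosph10, which joins the U3 snoRNP (1.65-fold). Of 42 further large-subunit factors 17 rose, led by Rrp15 (1.64-fold), Nol9, a polynucleotide kinase that acts on the spacer between 5.8S and 28S rRNA (1.53-fold), and Mdn1, the giant ATPase that remodels pre-60S particles (1.52-fold). The 3 that fell were Nop53, Zfp622 and Sbds, with log2 changes of -0.39, -0.34 and -0.34. Zfp622 and Sbds act on the particle in the cytoplasm. Of other factors of cytoplasmic steps in the same list, Eif6 rose (log2 change 0.50, adjusted p = 0.0036, limma). Efl1, Lsg1 and Nmd3 were not called, with log2 changes of 0.16, 0.13 and 0.12.

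Of 17 exosome and nuclease genes, which trim the precursor, 10 rose and 0 fell (13 had an unadjusted p under 0.05), led by Eri1, Exosc8 and Dis3 (log2 changes of 0.61, 0.61 and 0.59). Of 9 genes of snoRNP assembly 0 passed limma's test. At an unadjusted p under 0.05 there were 7, against 6614 of all 20239 genes. Of these 7, Naf1 lay lower with PDGF-BB (log2 change -0.24). Of 12 further Pol I genes 2 rose (16.7%), Polr2h (1.33-fold), a subunit shared by all nuclear polymerases, and Tcof1, treacle (1.30-fold). This is near the 17.4% called higher among genes at or above the median mean signal. The median log2 change of the 12 was 0.02. Taf1b, a subunit of SL1, was 1.24-fold lower. The Pol I subunit genes Polr1f, Polr1g and Polr1h, named Twistnb, Cd3eap and Znrd1 on the array, had log2 changes of 0.00, 0.17 and 0.11 and did not pass (adjusted p of 0.14 or more). Without C2, P1 or P2 the number of the 124 that rose was 31, and without P1 the number that fell was 2.

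**Figure D4:**
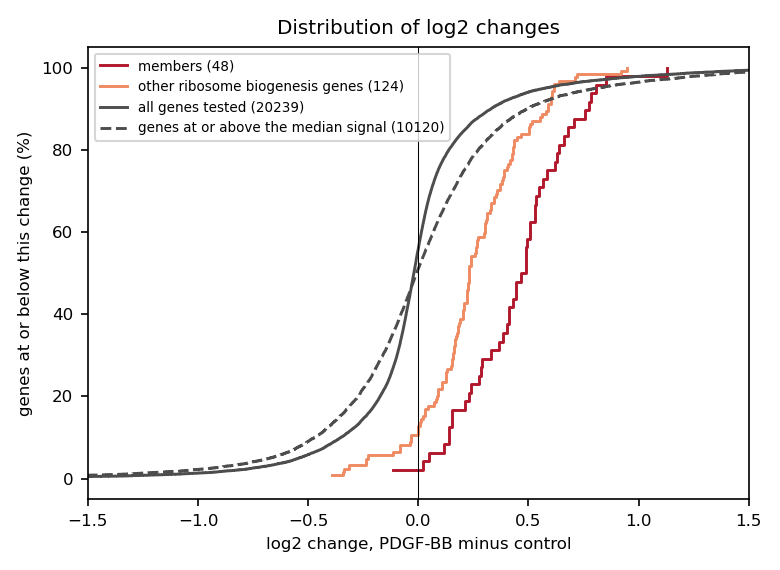
Share of genes at or below each log2 change, PDGF-BB minus control, for the 48 members, the 124 other ribosome biogenesis genes, all 20239 genes and the 10120 of these at or above the median mean signal. The curve of the members lies farthest to the right, with its median at 0.48, against 0.23 for the other pathway genes and -0.02 for all genes.

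Myc, the transcription factor known to drive this pathway, was itself higher. It measured 11.20, 10.87 and 10.67 in control and 11.66, 11.84 and 11.54 with PDGF-BB, and rose 1.70-fold (log2 change 0.76, SE 0.14, adjusted p = 0.010, limma). Of the 9 genes of its network, Mxd3 (1.55-fold) and Mlx (1.22-fold) rose too, and 4 fell, led by Mxi1, Mxd4 and Mnt, which like Mxd3 compete with Myc for its partner Max (log2 changes of -0.46, -0.42 and -0.34).

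Because Myc and Max bind the E-box CACGTG, the promoters of the members were searched for it, in windows from 250 bases before to 50 bases after the gene start in RefSeq's GRCm38.p6 (the first window listed per gene; the motif reads the same on both strands). Of 42 members with a window, 10 (23.8%) held the E-box, against 8.39% of 15651 genes tested and 10.8% of those at or above the median mean signal. It was present in 8 of 28 members called higher (28.6%) and 2 of 14 not called (14.3%). Of all genes called higher, 1631 had a window, and 178 of these (10.9%) held the E-box. In 8 of the 10 members with the E-box it lay within the first 50 bases after the start. Such a place was seen in 8 of 42 members (19.0%), 8 of 99 other ribosome biogenesis genes (8.08%) and 1.21% of all genes tested. The count by place was not part of the plan, and it was not made for the genes at or above the median mean signal. No test was made of these shares, a match is not a binding site, and no binding was measured here. The sites are printed to show the shared motif and its differing flanks, 5′ to 3′ on the gene's strand in stretches of 30 bases, with the E-box in capitals.
Nop2: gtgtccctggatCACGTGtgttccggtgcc
Utp4: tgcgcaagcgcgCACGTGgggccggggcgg
Ltv1: gccctgtggaccCACGTGtggagctgccgg
Utp20: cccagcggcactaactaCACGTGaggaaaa
Pes1: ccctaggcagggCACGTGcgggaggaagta
Pno1: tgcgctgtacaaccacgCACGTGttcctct
Mybbp1a: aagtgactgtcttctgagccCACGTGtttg
Tsr1: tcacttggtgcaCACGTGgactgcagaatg
Wdr43: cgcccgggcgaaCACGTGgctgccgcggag
Rrn3: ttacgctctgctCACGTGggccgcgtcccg

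In GRCm38.p6 the stretches lie at chr6:125131811-125131840 on the + strand for Nop2, chr8:106893643-106893672 (+) for Utp4, chr10:13193092-13193121 (-) for Ltv1 and chr10:88826765-88826794 (-) for Utp20. Those of Pes1, Pno1, Mybbp1a and Tsr1 lie at chr11:3963965-3963994 (+), chr11:17211540-17211569 (-), chr11:72441347-72441376 (+) and chr11:74898092-74898121 (+). Those of Wdr43 and Rrn3 lie at chr17:71616220-71616249 (+) and chr16:13780639-13780668 (+). The start site of a window was the start of the RefSeq gene span in 9 of these 10 genes, all but Wdr43. It was so in 31 of the 42 members with a window (73.8%) and in 57.8% of the windows of all genes tested. Counting the first base after the window's start site as 1, the E-box began at base 16 in Utp4, 18 in Wdr43, 25 in Tsr1, 29 in Ltv1, 38 in Utp20 and Pno1, 41 in Mybbp1a and 3 in Pes1. Counted back from the start, it began at base -60 in Nop2 and at bases -48 and -215 in Rrn3, of which the nearer is printed. Of the 10 genes, Pes1 and Rrn3 were those not called. The snoRNP genes with the largest changes, Dkc1, Nop58 and Nop56, held no such letters in their windows.

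Several members also carry snoRNA genes inside their own gene, as seen in RefSeq's gene spans. This was so for 8 of the 48 (16.7%), Taf1d, Nop56, Nop58, Dkc1, Wdr43, Tsr1, Gnl3 and Ncl, against 1.68% of 18832 protein-coding genes tested. Of 25 such snoRNAs 4 were measured. Snord57, a box C/D snoRNA inside Nop56, measured 13.19, 12.96 and 13.00 in control and 12.98, 13.03 and 12.94 with PDGF-BB, with overlapping groups (log2 change -0.07, interval -0.25 to 0.11, adjusted p = 0.63, limma), while Nop56 had a change of 0.81. Snord53 inside Wdr43 measured 11.04, 10.65 and 10.55 in control and 10.79, 10.63 and 10.59 with PDGF-BB (log2 change -0.08, interval -0.39 to 0.23), while Wdr43 had a change of 0.49 (0.27 to 0.72).

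The intervals of host and snoRNA did not overlap in these 2 genes. In Ncl, Snord82 measured 12.46, 12.43 and 12.63 in control and 12.02, 12.18 and 12.25 with PDGF-BB and fell by 0.36 on the log2 scale (interval -0.56 to -0.16, adjusted p = 0.026, limma). Snora75, a box H/ACA snoRNA in the same gene, rose from 6.70 ± 0.19 to 7.39 ± 0.23 (SD, n = 3 each, adjusted p = 0.014), with both means under the background level of 7.66. The snoRNA probes were not checked for signal from the host's precursor RNA, and how well the labelling takes up such short RNAs is not given in the sources used here.

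**Figure D5:**
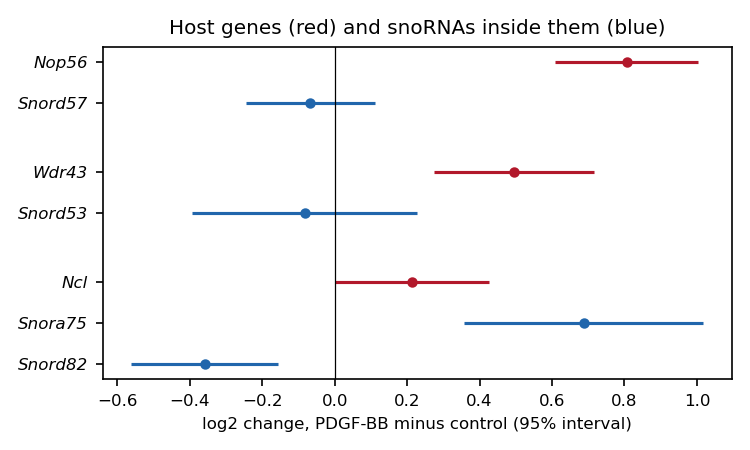
Log2 change, PDGF-BB minus control, with the 95% interval for 3 host genes (red) and the 4 measured snoRNAs inside them (blue). Snord57 and Snord53 lie near 0 while Nop56 and Wdr43 lie at 0.81 and 0.49, and the snoRNAs of Ncl lie at 0.69 and -0.36.

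Across the series, arrays of a group correlated at r = 0.994 to 0.996 over all genes and arrays of different groups at 0.973 to 0.986. The pericyte label was set against 10 markers, of which 7 lay above the background level of 7.66 in both groups. Of the 10, Anpep was higher (log2 change 0.87) and Cd248 lower (-0.33), and 8 were not called. Pdgfrb was at 12.98 in control and 12.85 with PDGF-BB, while Rgs5 lay at 7.77 and 7.71, and Des and Abcc9 lay under the background level. Of the markers of other cells, 2 of 10 endothelial, 1 of 10 macrophage, 2 of 7 epithelial and 4 of 6 adipocyte genes lay above that level in both groups. Of the 10 macrophage genes, Cd68 was lower with PDGF-BB (log2 change -0.42), as was Lyz2, which lay under the background level in both groups (6.29 and 5.80), and 8 were not called. Of the 6 adipocyte genes, Fabp4 and Pparg were higher (log2 changes of 3.02 and 0.98) and 4 were not called, with changes from -0.05 to 0.13. Of the endothelial and epithelial genes limma called 0, with 1 and 0 at an unadjusted p under 0.05. The part of these cells in the results was not tested.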

How the data were processed

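Total RNA was measured on 6 arrays, 3 control and 3 PDGF-BB, grouped by their titles. The authors deposited 1 table of log2 values with 21225 probe sets, made with RMA (a method of background correction, quantile normalization and summary per probe set), per the submitters' processing notes; its software is not given in the sources used here. GEO's platform annotation gives 20239 probe sets 1 symbol each, and the 986 others entered only an alternative. Precision is limited by the number of arrays.

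The fit was limma 3.58.1 (R 4.3.3), lmFit and eBayes over the 6 arrays with 1 factor, the group, two-sided, adjusted by Benjamini-Hochberg over 20239 genes and called under 0.05. It was tested on simulated data. Intervals are at 95%. The background level is the 90th percentile of the means of 17 lymphocyte, mast cell and erythroid markers taken as absent. The members and lists were chosen with earlier results of these data known, and the named complexes (UtpA, PeBoW and the like) after their values were seen. Polr1f, Polr1g and Polr1h were matched through older symbols. Values on each array are given for the 3 called members of each role with the largest change and the member nearest 0. Of each wider list up to 3 called genes in each direction are named, and Eif6 besides. The planned look at protein composition was not made because no protein table was used here.

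The arrays' numbers were taken to pair them in the replicate block and in the differences between same-numbered arrays, but not in the main fit. After each group's mean was taken off, same-numbered arrays correlated over genes with r = 0.25, 0.32 and 0.25, and differently numbered ones with r = -0.28 to 0.01. A gene's deviations within a group sum to 0, so the lower values of differently numbered arrays are no separate evidence of pairing. The labels do not say what a number shares.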

Additional observations from a re-analysis of the deposited data

How the results depend on the processing

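Each result was recomputed under 12 alternatives: the replicate number as a block, repeated quantile normalization, centring on array medians, only genes at or above the median signal, probe sets without a symbol, an intensity trend with robust variance, and each array left out. Over 48 members this gave 575 values (Mrto4 was filtered out as dim), of which 525 kept their call, 39 lost it, 11 gained it and 0 reversed. Of the 32 members called, 22 kept their call under every alternative, and the other 10 lost it only when 1 array was left out (adjusted p = 0.050 to 0.11). With the replicate block 35 members were higher, against 2213 of all 20239 genes. With the medians centred it was 34, against 2192, and with quantile normalization repeated 33, against 2113. Without dim genes it was 34 of 47 members, against 1946 of 10120 genes. Leaving out 1 array, the members called higher ranged from 23 to 32, small-subunit genes from 9 to 12, the proteins with several roles from 1 to 2, and the other pathway genes from 31 to 62 higher and 2 to 4 lower. The largest of these, 62, was without control array 1. Among the 48 members the block changed 3 calls (Taf1d, Noc3l and Ebna1bp2, all gained). These arrays cannot show changes in total ribosomal RNA or in RNA per cell, and dim genes may lie at background.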

Other observations

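Other promoter letters were counted in the same windows of the 42 members, as a description without a test and on both strands. The ETS core CCGGAAG was found in 14 members (33.3%), against 12.4% of all genes tested and 19.1% of those at or above the median mean signal. The GC box GGGCGG was found in 71.4% of members and 68.0% of those brighter genes. The E2F site TTTCCCGC was found in 2 members (4.76%) and 2.35% of the brighter genes, the TATA box TATAAA in 2 members (4.76%) and 6.73%, and the YY1 core AAGATGGC in 0 members and 5.27%. Among the other ribosome biogenesis genes 18 of 99 windows (18.2%) held the E-box CACGTG.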
